A study of Homo sapiens with 61 samples.

Results

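The tumour suppressor p53 is a transcription factor, and 9 of its well-known target genes are described here in human neurons treated with the microtubule poison vincristine. The genes, chosen by name, were MDM2, CCNG1, CDKN1A, PHLDA3, ZMAT3, TP53I3, RRM2B, SESN1 and TP53INP1. They are 9 of the 58440 gene identifiers in each of 2 count tables, and all 9 were found in both through their symbols in GENCODE release 29 (GRCh38). In unstressed cells p53 is kept low by MDM2, which marks it for degradation and is itself a p53 target, so the pair forms a feedback loop. Stress signalling releases p53 from MDM2, and p53 then raises genes for cell cycle arrest, DNA repair, metabolism and death. In neurons, which do not divide, the pathway is best known for its link to apoptosis after DNA or axon damage.

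The cells were neurons made by expression of the transcription factor NGN2 from WTC11, a widely used line of human induced pluripotent stem cells. They were differentiated for up to 14 days and then received 5 nM vincristine or, per the labels' protocols, the solvent DMSO for 16 hours. These solvent controls are called untreated. In the first experiment the lines were wild type (WT), DLK KO, LZK KO and a DLK LZK double KO. DLK and LZK are the kinases encoded by MAP3K12 and MAP3K13, which start the JNK stress pathway after axon damage. In the second experiment CRISPR interference neurons carried a lentiviral guide RNA that was a scrambled control (Control gRNA) or was directed at ATF2 or JUN, a pair of transcription factors that act below JNK. Each of the 8 groups of the first experiment had 4 libraries, and each of the 6 groups of the second had 5, apart from vincristine-treated ATF2 gRNA with 4. The labels do not say whether the libraries of a group came from separate differentiations, so p-values measure only the spread between libraries, which may be technical. How many clones stand behind each knockout line is not given in the sources used here.

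The 32 libraries of the first experiment held between 8410729 and 14647819 counts each, and the 29 of the second between 38925807 and 88392414. Levels are given as counts-per-million (CPM) of each library's total scaled with TMM factors. MAP3K12 averaged 91.0 CPM in untreated WT, 26.3 in DLK KO and 19.7 in the double KO, and MAP3K13 averaged 99.1 in WT, 31.9 in LZK KO and 29.6 in the double KO. A knockout by sequence change need not remove the transcript, and which part of each gene was altered is not given in the sources used here. ATF2 lay at 0.41% of the untreated control level with its guide, and JUN at 3.24% with its guide. The ATF2 guide also left JUN at 23.7% of the control level, and ATF2 in untreated DLK KO stood at 50.4% of WT. The summed level of 8 neuron markers was between 6297 and 11055 CPM in every library, and that of 5 glial markers did not exceed 6.38. The neuron sum differed between groups. Untreated, it was 8546 to 9074 CPM in WT, 6590 to 7458 in DLK KO, 9425 to 10032 in LZK KO and 9972 to 10210 in the double KO. In Control gRNA it was 8994 to 9437 CPM untreated and 7516 to 8066 with vincristine. Untreated ATF2 gRNA held 6795 to 7186 CPM and untreated JUN gRNA 8631 to 9234. The part of this in the results below was not tested. The library of vincristine-treated WT replicate 4 had the lowest level of JUN in its group, 289 CPM against up to 629 in the others. It also departed from its group over all genes with at least 20 counts summed over a pair of libraries. Averaged over these genes, the chi-square of its counts was 40.8, 27.8 and 40.0 against replicates 1, 2 and 3. Among those replicates the same measure was 3.61 to 6.77. Several values that move with the replicate 4 library are also given without it.

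Promoter sequence was read for 6 of the 9 genes, in 13 RefSeq windows (build GRCh38.p14) that hold the 250 bases before a transcript start. PHLDA3, RRM2B and TP53INP1 were not among them. The windows were searched on both strands for the p53 response element with at most 1 mismatch, and in a looser search, chosen after the sequences were seen, with at most 2. They were also searched for AP-1 sites (TGANTCA), to which JUN binds, and CRE-like sites (TGACGTCA, TGACGCAA or TTACGTCA), to which ATF2 binds. Only MDM2 held a match, in the overlapping windows of its internal start, the p53-responsive promoter P2. That stretch is shown because MDM2 defines the feedback loop, and because it pairs a p53 element with an AP-1 site. It lies on the plus strand at chr12:68808884-68808957, inside the gene and outside its annotated exons, with the AP-1 site and then the looser p53 match in capitals.
MDM2: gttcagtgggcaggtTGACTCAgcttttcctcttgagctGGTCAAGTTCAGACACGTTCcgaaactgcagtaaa
The non-exonic part of the CDKN1A window is shown because the largest changes below were in CDKN1A. It lies on the plus strand at chr6:36678464-36678657, within an intron of longer transcripts, and held none of the motifs.
CDKN1A: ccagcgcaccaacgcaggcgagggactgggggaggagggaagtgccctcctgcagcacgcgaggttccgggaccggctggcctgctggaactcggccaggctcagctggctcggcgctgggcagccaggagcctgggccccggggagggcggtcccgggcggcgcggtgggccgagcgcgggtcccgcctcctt
Among all 35116 windows of the same length, 0.35% held the p53 element, 2.49% the looser form, 6.57% the AP-1 site and 2.46% a CRE-like site. The matches are descriptions of letters, and the windows do not include more distant p53 elements.

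Per kilobase of exon, CCNG1 had the highest level of the 9 genes in both untreated control lines. It averaged 13.3 ± 1.56 CPM per kilobase in WT (SD, n = 4) and 28.1 ± 0.53 in Control gRNA (SD, n = 5). TP53INP1 followed in WT with 11.4 ± 0.16 CPM per kilobase, then MDM2 with 7.28 ± 0.35 and RRM2B with 6.43 ± 0.32. CDKN1A was the lowest in WT, at 0.81 ± 0.19 CPM per kilobase, within the spread of PHLDA3 at 0.97 ± 0.17. In Control gRNA CDKN1A was in the middle, at 5.38 ± 1.07 CPM per kilobase, and PHLDA3 was lowest at 1.39 ± 0.23. The experiments were separate, and no test was made between them.

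CDKN1A (ENSG00000124762.13, chr6:36676460-36687339, plus strand) encodes p21, the inhibitor of cyclin-dependent kinases through which p53 halts the cell cycle. Its log2 response was the largest of the 9 genes in both control lines, DLK KO, LZK KO and JUN gRNA, and it was smaller in every edited line than in its control. In the double KO and ATF2 gRNA the value of PHLDA3 was larger (0.55 against 0.34 and 0.39 against 0.18), and none of these 4 values passed the test. In untreated WT its 4 libraries held 2.96, 1.86, 2.11 and 2.98 CPM, and after vincristine 26.8, 21.4, 23.9 and 20.9. The groups were far apart, and the gene was 9.45-fold higher with vincristine. In edgeR's quasi-likelihood test, with Benjamini-Hochberg adjustment over all genes, the log2 fold change was 3.24 ± 0.22 (SE, n = 4 against 4, adjusted p = 4.28e-14). Without vincristine replicate 4 it was 3.29.

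**Figure D1:**
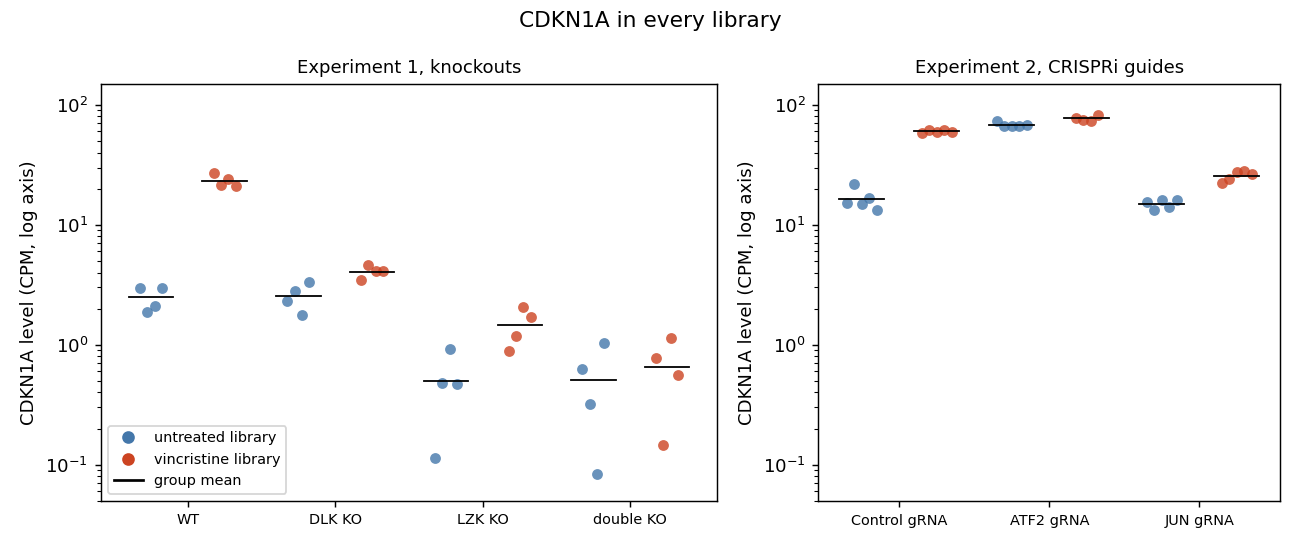
CDKN1A level in CPM (log axis) in every library of the 14 groups, untreated in blue and vincristine in red, with a line at each group mean. Vincristine-treated WT libraries sit at 20.9 to 26.8 CPM, above every other library of the first experiment, and untreated ATF2 gRNA libraries sit above vincristine-treated Control gRNA libraries.

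In DLK KO, CDKN1A held 2.30, 2.79, 1.77 and 3.33 CPM untreated and 3.49, 4.61, 4.11 and 4.10 with vincristine. The groups did not overlap, but the log2 fold change of 0.70 (95% interval 0.16 to 1.24) did not pass the test (edgeR quasi-likelihood, adjusted p = 0.107). It passed with DESeq2 (adjusted p = 0.038), without a filter on low counts (0.046) and in a fit of only these groups (0.016). In LZK KO the levels were 0.114, 0.481, 0.925 and 0.471 CPM untreated and 0.887, 1.19, 2.05 and 1.69 with vincristine. These rested on 1 to 10 counts and 8 to 20 counts per library, and the ranges overlapped slightly. The log2 fold change of 1.47 (95% interval 0.52 to 2.42) missed the threshold with edgeR (adjusted p = 0.0718) and passed it with DESeq2 (0.011), without a filter (0.010) and without untreated replicate 3 (log2 fold change 2.03, adjusted p = 0.026). In the double KO the libraries held 0.624, 0.321, 0.0839 and 1.02 CPM untreated and 0.773, 0.145, 1.13 and 0.563 with vincristine, on 1 to 13 counts. These groups overlapped almost wholly, with a log2 fold change of 0.34 and an interval from -0.71 to 1.38.

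The difference between responses was tested as an interaction. Against WT, the CDKN1A response was smaller by a log2 difference of -2.54 ± 0.36 (SE) in DLK KO and -2.90 ± 0.61 in the double KO (edgeR quasi-likelihood, adjusted p = 2.71e-06 and 0.000646). In LZK KO the difference was -1.77 ± 0.59, with an adjusted p of 0.0445 in the same edgeR test. That call was lost in 9 of 16 fits that each left out a library, with adjusted p from 0.0577 to 0.306. The libraries were WT untreated replicates 2 and 3, WT vincristine replicates 1 and 3, LZK KO untreated replicates 2, 3 and 4, and LZK KO vincristine replicates 1 and 2. Across those 16 fits the difference ranged from -2.08 to -1.21. The response of the double KO did not differ detectably from that of DLK KO (difference -0.36, 95% interval -1.58 to 0.86). Vincristine-treated levels stood at 17.5% of treated WT for DLK KO, 6.25% for LZK KO and 2.80% for the double KO.

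The lines already differed in CDKN1A without the drug. Untreated LZK KO and double KO averaged 0.50 ± 0.33 and 0.51 ± 0.41 CPM (SD, n = 4 each), against 2.48 ± 0.58 in WT. The log2 differences of -2.21 and -2.29 passed edgeR's quasi-likelihood test (adjusted p = 4.39e-05 and 7.51e-06). Untreated DLK KO averaged 2.55 ± 0.67 CPM, a log2 difference of 0.04 from WT with an interval from -0.55 to 0.62. In order of level, both untreated lines that lack LZK were lowest, followed by the treated double KO and treated LZK KO. Untreated WT and DLK KO came next and overlapped each other, then treated DLK KO, and treated WT stood alone at the top. In bulk RNA, fewer cells that express a gene and less RNA per cell cannot be told apart.

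In the second experiment CDKN1A held 15.2, 21.8, 14.8, 16.8 and 13.4 CPM in untreated Control gRNA, and 58.1, 62.0, 59.9, 61.2 and 58.9 CPM after vincristine. The gene was 3.68-fold higher, with no overlap between the groups (edgeR quasi-likelihood, log2 fold change 1.88 ± 0.08 SE, n = 5 against 5, adjusted p = 1.11e-22). With the JUN guide the untreated libraries held 15.4, 13.2, 16.2, 14.1 and 16.1 CPM and the treated ones 22.2, 24.1, 27.7, 28.1 and 26.6. That was a 1.72-fold rise (log2 fold change 0.78 ± 0.08 SE, edgeR adjusted p = 5.26e-10), again without overlap. Treated JUN gRNA reached 42.8% of the treated control level.

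The ATF2 guide gave another pattern. CDKN1A was already high without the drug, at 73.9, 66.2, 66.5, 66.2 and 67.8 CPM, and treated libraries held 78.3, 75.2, 73.4 and 82.1. Every untreated ATF2 gRNA library lay above every treated Control gRNA library. The untreated level was 4.18-fold that of untreated Control gRNA (edgeR quasi-likelihood, log2 difference 2.06 ± 0.08 SE, n = 5 against 5, adjusted p = 2.92e-24). Vincristine then added a log2 change of 0.18 (95% interval 0.02 to 0.34) that did not pass the test (adjusted p = 0.205 with edgeR). In a fit of only those groups it did pass, with an adjusted p of 0.048. Untreated JUN gRNA did not differ detectably from control, at -0.12 with an interval from -0.29 to 0.05.

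The responses differed by guide in the interaction test of edgeR. The log2 difference from the Control gRNA response was -1.70 ± 0.11 (SE) for ATF2 gRNA (adjusted p = 1.35e-15) and -1.10 ± 0.11 for JUN gRNA (adjusted p = 4.24e-10). The ATF2 gRNA response was also smaller than that of JUN gRNA, by -0.60 ± 0.11 (adjusted p = 0.000678). These differences share control libraries, and the first includes the raised untreated level. JUN itself is lower with both guides, and its part in the result was not tested.

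MDM2 (ENSG00000135679.23, chr12:68808176-68850686, plus strand), the ubiquitin ligase that restrains p53, was not called higher with vincristine in any of the 7 lines. Untreated WT libraries held 99.4, 101, 96.0 and 90.5 CPM and treated ones 92.6, 85.0, 88.7 and 92.7, which overlapped (log2 fold change -0.11, 95% interval -0.23 to 0.01). In Control gRNA, where CDKN1A rose 3.68-fold, MDM2 averaged 54.0 ± 4.00 CPM untreated and 55.7 ± 2.46 treated (SD, n = 5 each). MDM2 fell by 0.20 in DLK KO and by 0.25 in LZK KO on the log2 scale (edgeR quasi-likelihood, adjusted p = 0.0281 and 0.0103). In LZK KO the libraries went from between 90.8 and 109.9 CPM to between 82.0 and 86.6. The DLK KO call was lost without untreated replicate 1 or 2 or vincristine replicate 1, 2 or 3 (adjusted p 0.0668 to 0.0946), and the LZK KO call without untreated replicate 2 (log2 fold change -0.19). Both were also lost with no filter on low counts. The MDM2 response did not pass the test of a difference from the control line in any knockout or guide line. The closest was ATF2 gRNA (difference -0.19, edgeR adjusted p = 0.0818), which passed without Control gRNA untreated replicate 3, ATF2 gRNA untreated replicate 1 or ATF2 gRNA vincristine replicate 3 (adjusted p 0.0334 to 0.0465).

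CCNG1 encodes cyclin G1, which works with a phosphatase to activate MDM2 and so also curbs p53. In Control gRNA its 5 libraries moved from between 85.6 and 89.6 CPM to between 93.7 and 101, without overlap. The 1.12-fold rise passed edgeR's quasi-likelihood test (log2 fold change 0.16 ± 0.05 SE, adjusted p = 0.00449). JUN gRNA showed the same log2 fold change of 0.16 (edgeR adjusted p = 0.0104), with groups that overlapped. That call was lost without untreated replicate 5 (0.13, adjusted p = 0.0688) or vincristine replicate 4 (0.11, adjusted p = 0.0908). In the double KO the levels were 33.0, 34.2, 32.6 and 31.4 CPM untreated and 40.5, 39.7, 37.5 and 40.4 treated. Those groups did not overlap, yet the log2 change of 0.27 did not pass edgeR's test in the fit of all groups (adjusted p = 0.802). It passed in a fit of only the double KO groups (adjusted p = 0.00338). Its difference from the WT response passed only without WT vincristine replicate 4 (0.49 against 0.32, edgeR adjusted p = 0.0372). The CCNG1 response of ATF2 gRNA differed from that of Control gRNA by -0.18, which did not pass in the main fit. That difference passed in edgeR with a mean of at least 1 CPM and with only the groups compared (adjusted p = 0.0412 and 0.0253). It also passed without any of several single libraries (edgeR adjusted p up to 0.0468).

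ZMAT3 (ENSG00000172667.10, chr3:179017223-179072279, minus strand), a zinc finger RNA-binding protein that acts in p53-dependent splicing and growth suppression, fell with vincristine in both control lines. In WT it held 34.1, 35.1, 34.6 and 37.9 CPM untreated and 23.0, 21.3, 22.9 and 20.2 treated. The groups were well apart (edgeR quasi-likelihood, log2 fold change -0.69 ± 0.10 SE, adjusted p = 6.81e-07). In Control gRNA it averaged 26.8 ± 2.75 CPM untreated and 22.8 ± 1.74 treated, with overlap, and fell by 0.23 on the log2 scale (edgeR adjusted p = 0.0151). Without untreated replicate 3 the value was -0.17 and did not pass.

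The fall in ZMAT3 was smaller in the knockouts by the interaction test. Relative to WT the log2 response was higher by 0.46 for DLK KO, 0.44 for LZK KO and 0.63 for the double KO (edgeR interaction test, adjusted p = 0.0157, 0.0379 and 0.000912). The LZK KO call was lost in 8 of 16 fits that left out a library, with adjusted p up to 0.089. They were the fits without WT untreated replicates 2, 3 or 4, WT vincristine replicate 2, LZK KO untreated replicates 1 or 3, and LZK KO vincristine replicates 2 or 3. In the double KO the ZMAT3 groups overlapped in part, at 34.5 ± 2.33 CPM untreated and 33.0 ± 1.41 treated (SD, n = 4 each). Untreated LZK KO started lower than WT, at 28.5 ± 5.22 against 35.4 ± 1.68 CPM (SD, n = 4 each). Its treated libraries held 21.7 to 26.3 CPM and overlapped treated WT, so the LZK KO difference includes the lower start.

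PHLDA3, a small lipid-binding protein that blocks the kinase AKT, was scarce in every line. In Control gRNA it rose from 3.59, 4.68, 5.24, 4.59 and 3.64 CPM to 5.46, 5.92, 5.76, 5.34 and 9.56. The treated libraries all lay above the untreated ones, and replicate 5 stood apart from its group. The log2 fold change was 0.55 ± 0.15 (SE, edgeR quasi-likelihood, adjusted p = 0.00214), and it stayed between 0.37 and 0.64 and past the threshold whichever library was left out. In the double KO it held 2.91, 3.37, 2.52 and 2.61 CPM untreated and 4.64, 3.78, 4.16 and 4.22 treated. Those groups did not overlap and their log2 fold change was also 0.55, but it did not pass edgeR's test (adjusted p = 0.784). No difference in the PHLDA3 response between lines passed in the main fit. The difference of the double KO from WT passed without WT untreated replicate 3 (0.78 against 0.66, edgeR adjusted p = 0.0467).

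TP53INP1, a stress protein of autophagy and p53 phosphorylation, fell with vincristine in both control lines. WT went from 65.0, 65.3, 64.3 and 63.3 CPM to 37.4, 45.1, 43.1 and 55.9, without overlap and with replicate 4 nearest the untreated group. The log2 fold change was -0.51 ± 0.09 (SE, edgeR quasi-likelihood, adjusted p = 1.51e-05) and -0.62 without replicate 4. Control gRNA went from between 56.0 and 60.8 CPM to between 42.4 and 47.8, a log2 fold change of -0.38 ± 0.06 (edgeR adjusted p = 4.91e-06).

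In the 3 knockout lines the TP53INP1 response was smaller. The log2 response exceeded that of WT by 0.52 for DLK KO, 0.42 for LZK KO and 0.51 for the double KO (edgeR interaction test, adjusted p = 0.00193, 0.0170 and 0.00211). The LZK KO difference was 0.34 and missed the threshold without WT vincristine replicate 1. Without WT vincristine replicate 4 the differences were 0.64, 0.54 and 0.63 in the same order, and all passed. JUN gRNA exceeded Control gRNA by 0.28 (edgeR adjusted p = 0.0261), a call lost without Control gRNA untreated replicate 5, Control gRNA vincristine replicate 4, JUN gRNA untreated replicate 5, or JUN gRNA vincristine replicate 4 or 5 (adjusted p up to 0.0844). In ATF2 gRNA the gene was already lower than control untreated, at 43.0 ± 3.37 against 58.2 ± 2.05 CPM (SD, n = 5 each). It fell further to 35.4 ± 4.38 (n = 4), by 0.28 on the log2 scale (edgeR adjusted p = 0.00744). Without vincristine replicate 4 that change was -0.19 and did not pass.

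RRM2B supplies deoxynucleotides as the p53-inducible small subunit of ribonucleotide reductase. In Control gRNA it rose from 32.4, 28.3, 40.0, 39.2 and 35.0 CPM to 47.7, 45.7, 48.1, 48.0 and 50.3. All treated libraries lay above all untreated ones (edgeR quasi-likelihood, log2 fold change 0.45 ± 0.07 SE, adjusted p = 1.89e-06). With the ATF2 and JUN guides the response was smaller by -0.44 and -0.47 (edgeR interaction test, adjusted p = 0.00189 and 0.000703). Those lines started from 39.7 ± 2.43 and 41.5 ± 2.30 CPM and ended at 40.1 ± 4.03 and 40.8 ± 4.35. In WT the change was 0.20 and did not pass, and it was 0.06 without vincristine replicate 4, which held 52.8 CPM against 33.8 to 39.6 in the others.

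TP53I3, a quinone oxidoreductase linked to p53-dependent oxidative stress, was not called with vincristine in either control line. WT held 7.65, 7.74, 8.78 and 9.44 CPM untreated and 7.60, 7.73, 7.21 and 8.41 treated. With the JUN guide it fell from between 18.0 and 22.6 CPM to between 15.0 and 16.3, a log2 fold change of -0.37 ± 0.08 (SE, edgeR quasi-likelihood, adjusted p = 0.000362). That differed from Control gRNA by -0.36 (edgeR interaction test, adjusted p = 0.0176). With the ATF2 guide the fall of 0.30 on the log2 scale (edgeR adjusted p = 0.0262) was lost without untreated replicate 3 or 5 or vincristine replicate 2 or 3 (adjusted p up to 0.179). TP53I3 shares 80 exon bases with FAM228B on the opposite strand, and the strand setting of the counting is not given in the sources used here.

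SESN1 encodes sestrin 1, which limits mTORC1 signalling and oxidative stress. It moved least, with log2 fold changes between -0.17 and 0.05 over the 7 lines. The lowest of these, in Control gRNA, passed edgeR's quasi-likelihood test (adjusted p = 0.0323). There the libraries went from between 22.8 and 24.2 CPM to between 19.5 and 22.2. The call was lost in 6 of 10 fits that left out a library (Control gRNA untreated replicates 2, 3, 4 and 5, and vincristine replicates 2 and 4), with adjusted p up to 0.103.

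**Figure D2:**
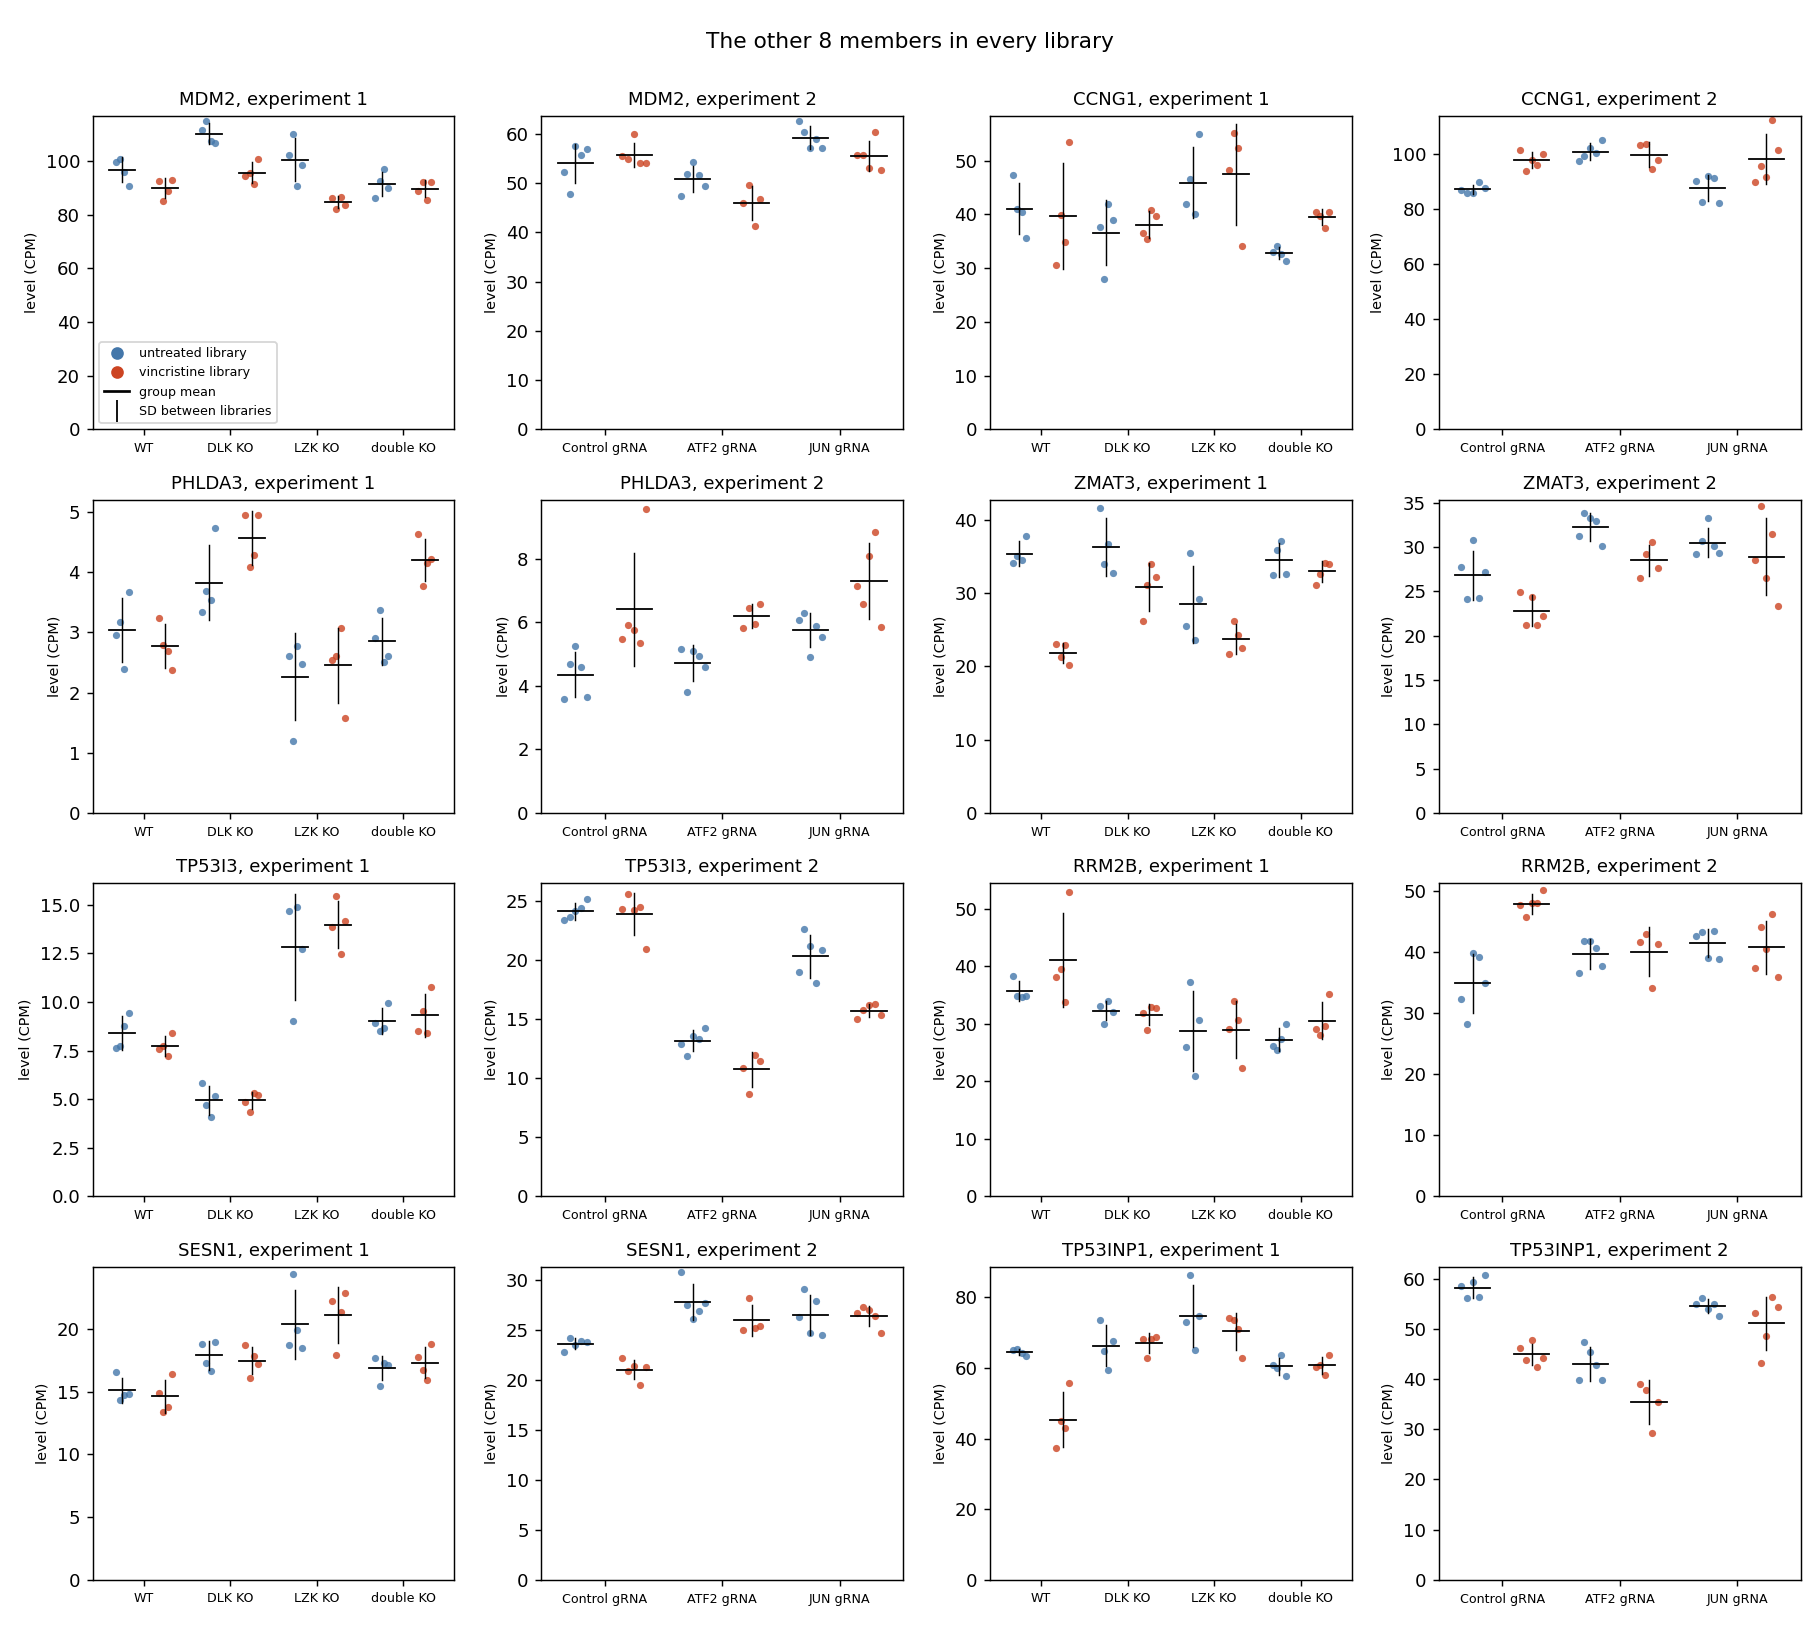
Levels of the other 8 genes in CPM (linear axes from 0), each point a library, untreated in blue and vincristine in red, with the group mean and SD in black. Mean MDM2 is lower with vincristine in every line except Control gRNA, ZMAT3 and TP53INP1 drop in treated WT, and TP53I3 differs more between lines than between treatments.

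Counted over the 9 genes, vincristine changed 3 in WT (1 higher, 2 lower), where 30.2% of all 18235 tested genes were called at an adjusted p under 0.05, 15.7% higher and 14.5% lower. The members' share is thus close to the background there. It changed 1 in DLK KO (background 6.53%, 2.28% lower) and 1 in LZK KO (3.88%, 1.61% lower), MDM2 in both, and 0 in the double KO (0.0658%). For the double KO edgeR's quasi-likelihood test called 0, DESeq2 also 0, and 1 member, PHLDA3, had an unadjusted p below 0.05. With the Control guide 7 of the 9 were called, 4 higher and 3 lower, against 35.3% of 20759 genes, 17.1% higher and 18.1% lower. Under the ATF2 guide 2 were called, both lower (background 6.1%, 4.22% lower). Under the JUN guide 3 were called, 2 higher and 1 lower (15.9%, 7.58% higher and 8.31% lower). The median log2 fold change of the 9 genes was -0.11 in WT and 0.04 in Control gRNA, beside medians of 0.00 and 0.03 over all genes tested. Without CDKN1A the log2 fold changes of the remaining members lay between -0.69 and 0.20 in WT and between -0.38 and 0.55 in Control gRNA.

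Interaction tests called 3 members in each of the comparisons of DLK KO, LZK KO and the double KO with WT, against 19.4%, 12.4% and 19.4% of all genes. In all 3 comparisons they were CDKN1A, with a lower response, and ZMAT3 and TP53INP1, with higher ones. Over all genes 9.95%, 5.88% and 9.21% had higher responses and 9.41%, 6.53% and 10.2% lower ones. The comparisons share the WT libraries. Between the double KO and DLK KO no member was called by edgeR's quasi-likelihood test or by DESeq2 (background 1.14%), and MDM2 alone was at an unadjusted p below 0.05. ATF2 gRNA differed from Control gRNA in 2 members, both with lower responses (background 20.6%, 10.4% lower). JUN gRNA differed in 4, 1 higher and 3 lower (15.8%, 8.71% higher and 7.06% lower). The ATF2 guide differed from the JUN guide in 1, lower (2.83%, 1.92% lower).

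**Figure D3:**
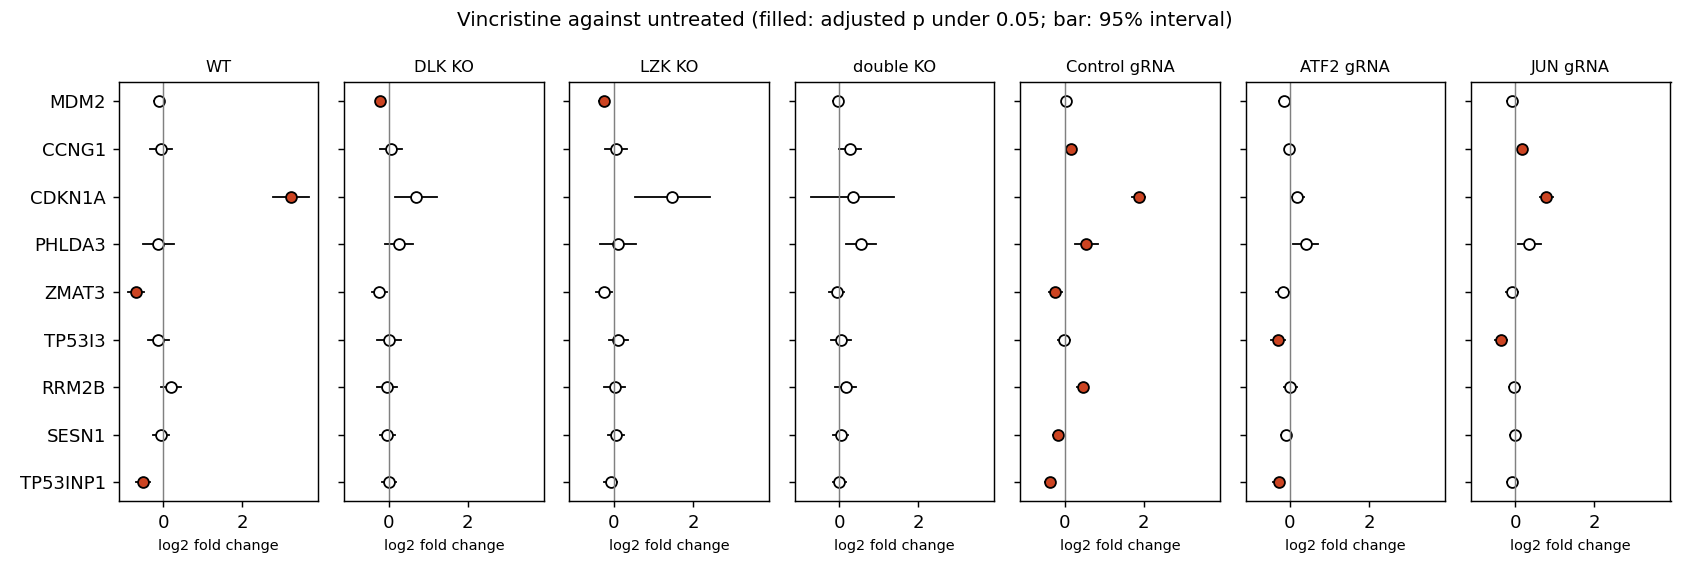
Log2 fold change of vincristine against untreated for the 9 genes in the 7 lines, with bars for 95% intervals and filled points for an adjusted p under 0.05. CDKN1A stands apart at 3.24 in WT, 1.88 in Control gRNA and 0.78 in JUN gRNA, while the other genes lie between -0.69 and 0.55 in each line.

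The untreated lines differed from their controls in several members, and TP53I3 showed opposite directions in the single knockouts. Its level was 5.83, 4.69, 4.07 and 5.16 CPM in DLK KO and 14.7, 9.02, 14.9 and 12.7 in LZK KO, either side of WT. The log2 differences were -0.77 and 0.62 (edgeR quasi-likelihood, adjusted p = 3.69e-05 and 0.000192), and LZK KO replicate 2 overlapped WT. In ATF2 gRNA TP53I3 was at 12.9, 11.9, 13.5, 13.3 and 14.3 CPM against 23.4 to 25.1 in Control gRNA, a log2 difference of -0.87 ± 0.08 (SE, edgeR adjusted p = 4.86e-13). In JUN gRNA it was lower by 0.25 on the log2 scale (edgeR adjusted p = 0.0268), a call lost without Control gRNA replicate 4 or 5 or JUN gRNA replicate 1 or 4 (adjusted p up to 0.115).

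SESN1 was higher in untreated LZK KO by a log2 difference of 0.43 (edgeR quasi-likelihood, adjusted p = 0.000474), with 18.5 to 24.4 CPM against 14.4 to 16.5 in WT. In ATF2 gRNA it was higher by 0.23 (edgeR adjusted p = 0.00216). The difference of 0.24 in DLK KO (edgeR adjusted p = 0.0448) was lost in 6 of 8 fits that left out a library (WT replicates 2, 3 and 4 and DLK KO replicates 1, 2 and 4). MDM2 was higher in DLK KO by 0.19 (edgeR adjusted p = 0.0107), a call lost with no filter on low counts.

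ATF2 gRNA had the most members apart from control without the drug, 7 of 9 against 39.9% of all genes, with 5 higher and 2 lower (19.7% and 20.2% of all genes). Beside CDKN1A and SESN1, the higher ones were ZMAT3 (0.27), CCNG1 (0.21) and RRM2B (0.18) on the log2 scale. The lower ones were TP53I3 and TP53INP1, the latter by -0.44 (edgeR quasi-likelihood, adjusted p = 2.20e-07). The RRM2B call was lost in 6 of 10 fits that left out a library (Control gRNA replicates 1, 2 and 5 and ATF2 gRNA replicates 2, 3 and 4), and its difference was 0.12 without Control gRNA replicate 2. JUN gRNA had 2 members called (background 11.2%, 5.78% higher and 5.46% lower), TP53I3 lower and RRM2B higher. That RRM2B difference of 0.24 was lost without Control gRNA replicate 1 or 2 or JUN gRNA replicate 2 or 4 (adjusted p up to 0.126). DLK KO had 3 called, 2 higher and 1 lower (34.5%, 16.5% higher and 17.9% lower). LZK KO had 4, 2 in each direction (33.9%, 17.1% higher and 16.8% lower), and the double KO 2, both lower (45.7%, 22.1% lower). For DLK KO and the double KO these shares were close to or under the background. In LZK KO the fourth, beside CDKN1A, TP53I3 and SESN1, was ZMAT3 at -0.32, and in the double KO RRM2B stood at -0.39 beside CDKN1A. RRM2B in LZK KO (-0.32, edgeR adjusted p = 0.0518) and CCNG1 in the double KO (-0.33, edgeR adjusted p = 0.0555) lay just outside the threshold, and other fits moved them past it. RRM2B was called lower in LZK KO with DESeq2 (adjusted p = 0.0419), and in edgeR with RLE factors, with no filter, with a mean of at least 1 CPM, with only the groups compared, and without WT replicate 2 or LZK KO replicate 2 (adjusted p 0.00377 to 0.0466). CCNG1 was called lower in the double KO with DESeq2 (adjusted p = 0.0409), and in edgeR with RLE factors, with no filter, with only the groups compared, and without WT replicate 4 (adjusted p 9.83e-05 to 0.047).

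**Figure D4:**
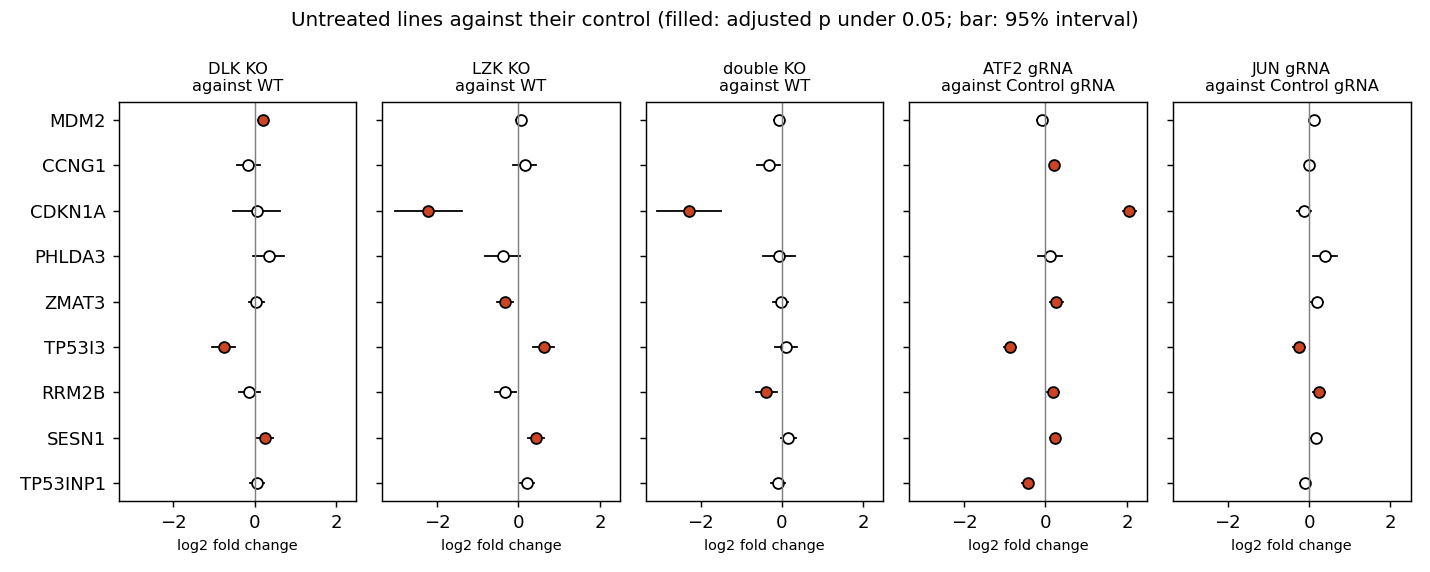
Log2 difference of each untreated line from its control (WT or Control gRNA) for the 9 genes, with bars for 95% intervals and filled points for an adjusted p under 0.05. CDKN1A lies near -2.2 in LZK KO and the double KO and at 2.06 in ATF2 gRNA, and TP53I3 is lower in DLK KO and ATF2 gRNA and higher in LZK KO.

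MDM4, the MDM2 relative that holds p53 inactive, moved in opposite directions in WT and LZK KO. WT went from between 103 and 112 CPM to between 134 and 141 (edgeR quasi-likelihood, log2 fold change 0.33 ± 0.06 SE, adjusted p = 2.37e-05). Control gRNA did not show this rise. There the log2 fold change was 0.03, and MDM4 averaged 50.4 CPM untreated and 51.4 treated, in groups that overlapped. LZK KO fell by 0.26 on the log2 scale (edgeR adjusted p = 0.00475), a call lost without untreated replicate 2 (adjusted p = 0.0546). The difference from the WT response was -0.50 for DLK KO, -0.59 for LZK KO and -0.45 for the double KO, and all 3 passed the interaction test of edgeR. In untreated ATF2 gRNA MDM4 was lower than control by 0.48 on the log2 scale (edgeR adjusted p = 1.55e-07).

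A wider list of 33 other p53 targets moved with vincristine in both directions. In WT 13 of 26 tested were called, 10 higher and 3 lower, beside 30.2% of all genes, 15.7% higher and 14.5% lower. In Control gRNA 20 of 32 tested were called, 16 higher and 4 lower, beside 35.3% of all genes, 17.1% higher and 18.1% lower. The counts were 7 of 26 in DLK KO, 7 of 26 in LZK KO and 0 of 26 in the double KO, where 6.53%, 3.88% and 0.0658% of all genes were called. They were 4 of 32 in ATF2 gRNA and 13 of 32 in JUN gRNA, beside 6.1% and 15.9%. Calls over all genes were thus also fewer in each edited line than in its control. The list held 10 death genes, BBC3, PMAIP1, TNFRSF10B, PERP, FAS, EDA2R, BAX, AEN, APAF1 and TP53AIP1. In WT 4 of 9 tested were called, BBC3, PMAIP1, TNFRSF10B and PERP, all higher (15.7% of all genes). In Control gRNA 5 of 10 were called, BBC3, PMAIP1, TNFRSF10B, FAS and EDA2R, all higher (17.1% of all genes). No test of the list against other genes was made.

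The highest in WT were SESN2, a stress-induced sestrin, BBC3, the BH3-only death protein PUMA, and PMAIP1, the BH3-only protein NOXA. SESN2 went from 13.1, 12.2, 11.2 and 10.7 CPM to 105, 91.3, 90.5 and 57.8 (edgeR quasi-likelihood, log2 fold change 2.87 ± 0.14 SE, adjusted p = 3.18e-18). BBC3 went from 7.65, 5.59, 4.78 and 5.76 CPM to 42.6, 39.2, 36.2 and 22.4, a log2 fold change of 2.58. Both were lowest in replicate 4, and without it their log2 fold changes were 3.02 and 2.74.

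BBC3 also responded in lines where CDKN1A did not pass the test, by 1.43 for DLK KO, 1.40 for LZK KO and 0.65 for ATF2 gRNA. The CDKN1A values there were 0.70, 1.47 and 0.18, and each passed in some other fit. In LZK KO CDKN1A thus changed about as much as BBC3, on few counts. BBC3 rose by 2.43 in Control gRNA and 1.22 in JUN gRNA, and its value in the double KO was -0.09. SESN2 rose by 1.71 in Control gRNA, and by 0.68, 0.99, 0.65 and 0.69 in DLK KO, LZK KO, ATF2 gRNA and JUN gRNA. PMAIP1 rose by 2.08 in WT and 1.38 in Control gRNA. In the untreated double KO it had 0, 0, 1 and 1 counts, so no fold is given there. PMAIP1 was called higher in DLK KO (1.20), ATF2 gRNA (0.48) and JUN gRNA (0.39), but these calls were lost in 7 of 8, 4 of 9 and 7 of 10 fits that left out a library. Its DLK KO call was kept only without DLK KO untreated replicate 3, and its JUN gRNA call only without JUN gRNA untreated replicate 3 or vincristine replicate 4 or 5. Its ATF2 gRNA call was lost without ATF2 gRNA untreated replicate 2, 3 or 4 or vincristine replicate 2.

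The lowest in WT were TIGAR (-1.31), which dampens glycolysis, SUSD6 (-0.69) and the glutaminase GLS2 (-0.51). The GLS2 call was lost when replicate 2 or 3 of either WT group was left out (adjusted p up to 0.153). In Control gRNA the lowest were SUSD6 (-0.51), the kinase PLK2 (-0.46) and TIGAR (-0.41). The highest there were scarce transcripts. GDF15, a secreted stress cytokine, went from between 0.181 and 0.325 CPM to between 1.15 and 1.68, and SPATA18, a mitochondrial quality protein, from between 0 and 0.353 to between 0.726 and 1.47. DRAM1, a lysosomal autophagy protein, had 0 counts in all 5 untreated libraries and 5, 7, 7, 2 and 16 in the treated ones.

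**Figure D5:**
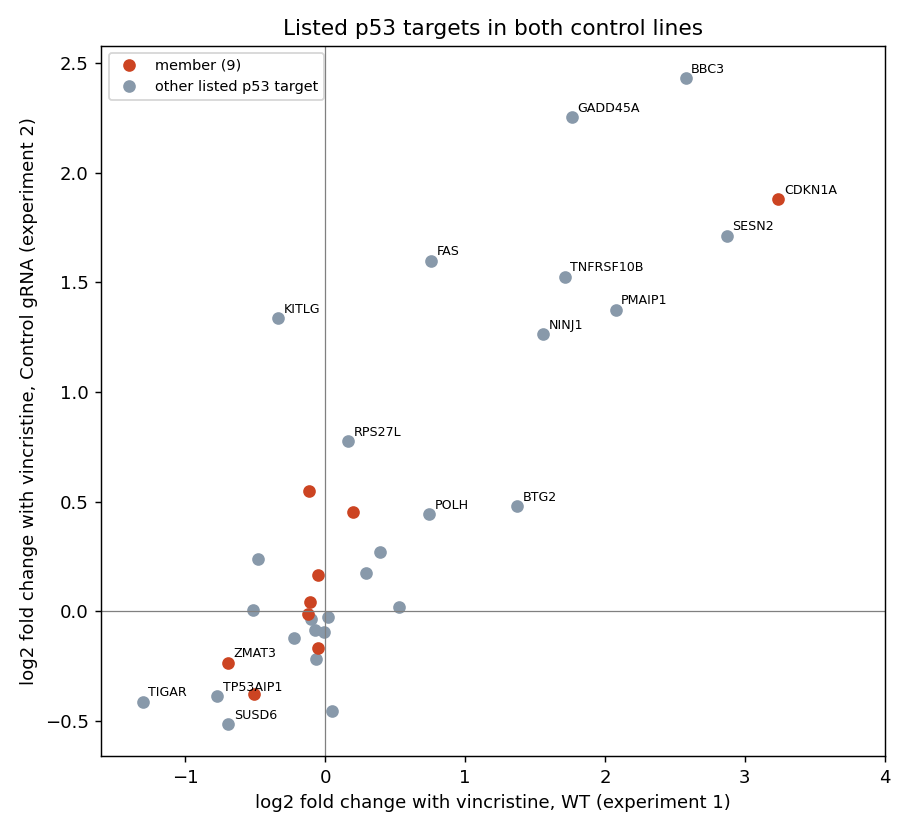
Log2 fold change with vincristine in WT (x axis) and in Control gRNA (y axis) for the 9 members in red and the 26 other listed p53 targets tested in both experiments in grey. CDKN1A, SESN2, BBC3, PMAIP1 and GADD45A are high in both lines, and TIGAR, SUSD6 and ZMAT3 are low in both.

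Without the drug, ATF2 gRNA raised 20 and lowered 3 of the 32 tested genes of the wider list relative to Control gRNA, beside 19.7% and 20.2% of all genes. GDF15 was at 9.87, 8.63, 7.56, 8.02 and 7.58 CPM against at most 0.325 in control (edgeR quasi-likelihood, log2 difference 5.28). BBC3 was higher by 0.93, PMAIP1 by 0.70 and SESN2 by 0.75, each past the threshold. In untreated JUN gRNA 8 of 32 were called, 7 higher and 1 lower, beside 11.2% of all genes, 5.78% higher and 5.46% lower.

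Genes that p21 signalling is known to repress, a list of 12 for mitosis and DNA replication such as CDK1, CCNB1 and MKI67, were compared beside CDKN1A. All 12 were higher in untreated LZK KO than in WT (edgeR quasi-likelihood, median log2 difference 2.27, beside 0.01 over all genes), where 17.1% of all genes were higher, with a summed level of 88.7 to 97.5 against 18.6 to 22.3 CPM. In the untreated double KO, where CDKN1A was equally low, 6 were higher and 1 lower and the sum was 34.7 to 42.4 CPM. Those 7 of 12 stand beside 45.7% of all genes called there. Lower calls made up 22.1% of all genes, and the remaining calls were higher. In untreated ATF2 gRNA, where CDKN1A was high, 2 of 12 were lower, a share no higher than the 20.2% of all genes, and the sum was 18.9 to 23.5 against 24.0 to 26.7 CPM in control. Other groups did not show a lower sum with more CDKN1A. Where CDKN1A was near its control level, the sum was 27.4 to 31.3 CPM in untreated DLK KO and 17.8 to 21.8 in untreated JUN gRNA. With vincristine, which raised CDKN1A, it was 20.5 to 27.0 CPM in WT and 27.5 to 29.6 in Control gRNA. The same genes mark dividing cells, and whether cells or RNA per cell moved was not tested. The summed level of 5 pluripotent cell markers was 2.81 to 3.35 CPM in untreated WT, 10.3 to 14.3 in DLK KO, 13.2 to 18.8 in LZK KO and 52.9 to 59.1 in the double KO. LIN28A averaged 53.4 CPM in the last, and POU5F1 did not exceed 1.04 CPM in any untreated library. The sum was 9.58 to 13.5 CPM in untreated Control gRNA, 33.8 to 40.2 with the ATF2 guide and 17.3 to 19.1 with the JUN guide, and TDGF1 was at 0 in all of these libraries. The part of such cells in the untreated differences was not tested.

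Over the group means of the 8 and 6 groups, the genes most like CDKN1A among 12337 compared were RCN1, a calcium-binding protein of the endoplasmic reticulum, the lncRNA AC104009.1 and SHMT2, a mitochondrial enzyme of one-carbon metabolism. Their mean Pearson r was 0.97 for each of the 3. The groups share their untreated and treated states, so these values are descriptions. For MDM2 the genes were TARBP1 (0.93), CAMK4 (0.92) and C1orf174 (0.89). The next member by likeness to CDKN1A was RRM2B at rank 848, with a mean r of 0.66 (0.90 and 0.43 in the 2 experiments). The least alike member was TP53INP1, with a mean r of -0.80 (-0.68 and -0.92).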

How the data were processed

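The deposited tables hold raw read counts per gene, unnormalized, and the length of each gene. Per the submitters' processing notes the authors used cutadapt 3.4, STAR and featureCounts of Subread 2.0.1 with GRCh38, and per the file headers the alignments had duplicates marked. Strand setting and duplicate handling in the counting are not given in the sources used here. Of 58440 identifiers, 58320 matched a GENCODE 29 symbol.

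Each experiment was fitted with all its groups in edgeR 4.0.16 (R 4.3.3): filterByExpr by group, TMM factors, robust quasi-likelihood F tests, Benjamini-Hochberg adjustment over the 18235 or 20759 genes tested, calls at an adjusted p under 0.05. There were 19 comparisons. All 9 members passed the filter in both experiments. DESeq2 1.42.0, other filters and factors, a replicate block, leaving out each library in turn and fits restricted to the compared groups were the alternatives. The scripts were checked on simulated counts. Figures were drawn with matplotlib 3.10.9.

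The members and the gene lists were chosen with earlier results of these data known. Named were all members, MDM4, the targeted genes, and the 3 highest and 3 lowest called of the wider target list in WT and Control gRNA. Of 104 pairs of libraries within groups, 0 were identical. The SE of a log2 fold change was worked back from the test, as its absolute value over the square root of the F statistic. Intervals were built from that SE and have a confidence level of 95%. Another gene of the rule is not reported here.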

Additional observations from a re-analysis of the deposited data

Results flagged for a closer look

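Among 126 sets of member levels (9 genes in 14 groups), 7 had a library far from the others of its group. Chance gives such a library in about 1 in 20 sets, so about 6 would arise by chance here. RRM2B was at 38.3 CPM in untreated WT replicate 1, against 34.7 to 34.9 in the others. TP53INP1 was at 62.9 CPM in vincristine-treated DLK KO replicate 2 (others 68.1 to 68.9). MDM2 was at 60.0 CPM in vincristine-treated Control gRNA replicate 3 (others 54.0 to 55.5). CDKN1A was at 73.9 CPM in untreated ATF2 gRNA replicate 1 (others 66.2 to 67.8). PHLDA3 was at 9.56 CPM and TP53I3 at 20.9 CPM in vincristine-treated Control gRNA replicate 5, against 5.34 to 5.92 and 24.3 to 25.6 in the others. SESN1 was at 28.3 CPM in vincristine-treated ATF2 gRNA replicate 3 (others 25.0 to 25.4).

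The vincristine response differed between lines in 16 interaction tests of members. Each comparison tested 9 members, and between 1.14% and 20.6% of all genes were called in it. Calls that were lost in other fits are named with each gene above. For CDKN1A the log2 differences from WT were -2.54 for DLK KO, -1.77 for LZK KO and -2.90 for the double KO. From Control gRNA they were -1.70 with the ATF2 guide and -1.10 with the JUN guide, and the ATF2 guide differed from the JUN guide by -0.60. For ZMAT3 the differences from WT were 0.46 for DLK KO, 0.44 for LZK KO and 0.63 for the double KO. For TP53INP1 they were 0.52, 0.42 and 0.51 in the same order, and 0.28 for the JUN guide against Control gRNA. RRM2B differed from Control gRNA by -0.44 with the ATF2 guide and -0.47 with the JUN guide, and TP53I3 by -0.36 with the JUN guide.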

How the results depend on the processing

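Over 3067 refits of 171 member results, 2946 kept their direction and their side of the threshold, 78 lost a call, 43 gained one and 0 reversed. The shares of all genes given above belong to the main fit. They do not apply to the counts of members below, which are therefore not read against a background. With a fit of only the groups compared the count of members called was 2 in DLK KO, 0 in LZK KO, 1 in the double KO and 1 in ATF2 gRNA for vincristine, and 1 for LZK KO against WT. With DESeq2 it was 2 in DLK KO and 2 in LZK KO. With no filter on low counts it was 1 for untreated DLK KO and 1 for untreated JUN gRNA. The restricted fit also ended the calls of MDM2 in LZK KO, of CCNG1 in JUN gRNA, of TP53I3 and TP53INP1 in ATF2 gRNA, of ZMAT3 and TP53INP1 in LZK KO against WT, of RRM2B in untreated ATF2 gRNA and of MDM4 in LZK KO. No filter ended those of MDM2 in DLK KO and LZK KO, of SESN1 in Control gRNA and untreated DLK KO, of TP53I3 in untreated JUN gRNA, of ZMAT3 in LZK KO against WT and of MDM4 in LZK KO. Leaving out 1 library gave 0 to 1 called members in DLK KO, 0 to 2 in LZK KO, 5 to 7 in Control gRNA, 1 to 2 in ATF2 gRNA and 2 to 4 in JUN gRNA for vincristine. It gave 1 to 3 for the LZK KO difference, 3 to 4 for the double KO, 2 to 4 for ATF2 gRNA and 3 to 4 for JUN gRNA. For untreated lines it gave 2 to 3 in DLK KO, 4 to 5 in LZK KO, 2 to 3 in the double KO, 6 to 7 in ATF2 gRNA and 0 to 4 in JUN gRNA. The causes were not tested. Same-numbered libraries did not detectably deviate together (30 pairs, r from -0.18 to 0.11), so the main fits used no pairing by number. These values cannot show whether same-numbered libraries were prepared together. With the replicate block 3 members were called in WT and 7 in Control gRNA, and 170 of 171 results kept their call, the exception being CDKN1A for LZK KO against WT (-1.77, adjusted p = 0.057 with edgeR). CDKN1A in the lines without LZK rests on few counts, which limits its precision.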
